A study of Mus musculus with 9 samples.

Results

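The collagen genes of the mouse uterus were compared between Wnk1fl/fl controls and Wnk1d/d mice, which lack WNK1 in the uterus. The members were all rows of the deposited expression table whose symbol is written as Col, a type number, the letter a and a chain number, and 44 of 31274 entries met this rule. The libraries came from whole uterus on pseudopregnancy day (PPD) 4.5, during receptivity, of young adult virgin C57BL/6 females that had been mated with vasectomized WT males, so that no embryo was present. The 4 controls carried floxed Wnk1 alleles without Cre (labelled Wnk1f/f), and the 5 Wnk1d/d mice carried the same alleles together with a Cre driven by the progesterone receptor gene. Each library represented 1 mouse. Because Cre was active only where the progesterone receptor gene is used, uterine endothelial and immune cells retained WNK1 in both genotypes, whereas the ovary and the pituitary, which also use this gene, could recombine in the Wnk1d/d mice.

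Collagens are proteins of 3 chains wound into a triple helix, and each chain is the product of its own gene. Fibrillar collagens (types I, II, III, V, XI, XXIV and XXVII) form the banded fibers that carry tension, with types V and XI lying inside the fiber and setting its width. Type IV forms the sheet-like network of basement membranes, type VI forms beaded microfilaments close to the cell surface, the FACIT collagens sit on the surface of fibers, and the multiplexins (types XV and XVIII) anchor basement membranes to the matrix below. In the uterus, stromal fibroblasts and myometrial smooth muscle make most of the interstitial collagen, and the stroma is remodeled when the tissue becomes receptive and decidualizes.

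Expression was given as FPKM, fragments per unit of transcript length scaled to the mapped fragments of the library, which corrects for transcript length and therefore allows levels of different genes to be set side by side. Wnk1 measured 44.92, 43.41, 47.32 and 45.52 FPKM in the controls and 33.94, 29.85, 31.00, 30.16 and 31.27 FPKM in the Wnk1d/d uteri, with every Wnk1d/d library below every control, although the deleted exon is only a small piece of the transcript measured (log2 fold change -0.52, SE 0.06, limma adjusted p = 0.00167). Libraries of the same genotype correlated at 0.942 to 0.969 across genes on the log2 scale and libraries of different genotype at 0.906 to 0.956. The absolute depth of the libraries is unknown, and the FPKM value of 1 fragment differed by no more than 1.34-fold among them. Control 4 stood apart in 4 liver transcripts (Alb, Apoa1, Ttr and Fgb), with a summed level of 106 FPKM against at most 7.99 in any other library, and without this library the same 8 collagens were called higher and the same 5 lower.

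Of the 44 collagen genes, 34 exceeded a mean of 1 FPKM in at least 1 genotype and were tested, among 14728 genes in all. A gene was called when its adjusted p was under 0.05 and its mean FPKM differed at least 1.5-fold between genotypes. By this rule 8 collagens were higher in Wnk1d/d uteri, where 5.09% of all genes tested were called higher, and 5 were lower, where 5.18% of all genes were called lower. In either direction, 13 of the 34 (38.2%) were called, compared with 10.3% of all genes. Without the fold criterion, 10 collagens had a higher and 5 a lower level at an adjusted p under 0.05, a threshold met by 22.1% of all genes (11.1% higher and 11.0% lower). Among the 10, Col3a1 and Col12a1 missed the fold criterion, and other fits moved them past this threshold. The limma adjusted p was 0.159 for Col3a1 with quantile normalization and 0.112 for Col12a1 without control 2. In 8 collagens every Wnk1d/d library exceeded every control (9.27% of all genes), and in 4 every Wnk1d/d library lay below every control (10.6% of all genes). The median log2 fold change of the 34 genes was 0.17, beside 0.0030 for all genes tested. This median depended on which genes and libraries entered, at 0.0008 with no filter, 0.26 with a filter at 5 FPKM and 0.10 without control 1. It depended on scaling as well, at 0.10 with quantile normalization.

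**Figure D1:**
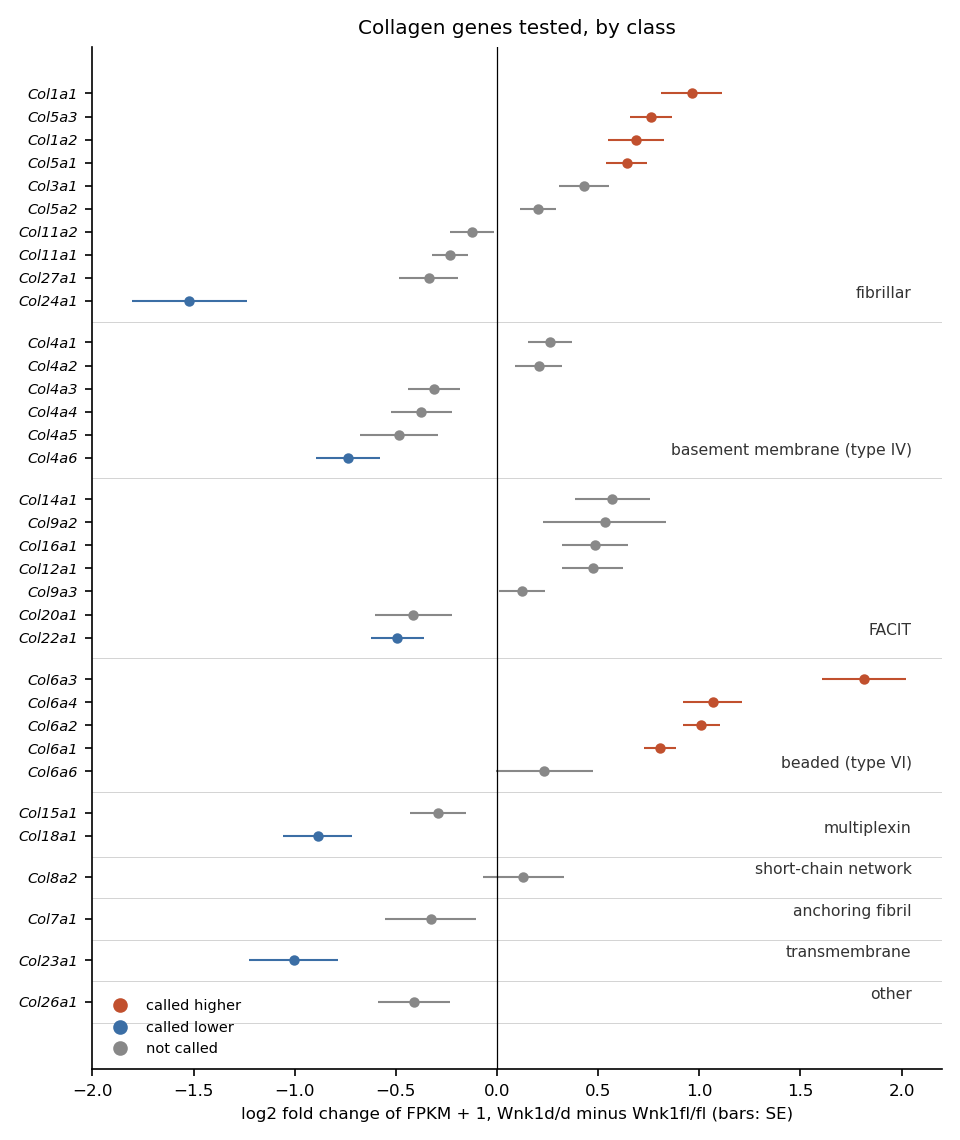
Log2 fold change of FPKM + 1 (Wnk1d/d minus Wnk1fl/fl, x axis) for the 34 collagen genes tested, grouped by class, with bars showing the SE. The 8 genes called higher belong to types I, V and VI, the highest being Col6a3 at 1.81, and the 5 called lower lie in 5 different classes, the lowest being Col24a1 at -1.52.

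The higher calls fell in 2 classes. Type VI supplied 4 of them (Col6a1, Col6a2, Col6a3 and Col6a4) and the fibrillar class supplied the other 4 (Col1a1, Col1a2, Col5a1 and Col5a3). The 5 lower calls were spread over the fibrillar class (Col24a1), type IV (Col4a6), the FACIT collagens (Col22a1), the multiplexins (Col18a1) and the transmembrane collagens (Col23a1). For these 13 genes the exact two-sided permutation p over all 126 assignments of the genotypes to the libraries lay between 0.00794, the smallest value they can give, and 0.0238. These values are unadjusted and come from the libraries that gave the calls, so they are no independent support. Col11a1 (permutation p = 0.00794) and Col3a1 (permutation p = 0.0238) fell in the same range and were not called.

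Promoter sequence is shown for the genes on which these calls turn, so that neighbours called together or apart can be read side by side. RefSeq entries for the bases before the transcription start were matched for 35 of the 44 members in 38 windows of 250 bases (GRCm38.p6). Both strands were searched for 4 motifs, the CCAAT box (CCAAT), the GC box (GGGCGG), the TATA box (TATAAA) and the forkhead core (GTAAACA), none of which overlapped another in the stretches printed. The GC box was found in 22 of the 38 collagen windows (57.9%) and in 32.7% of 32851 windows of the same length genome-wide. The CCAAT box was in 13 collagen windows beside 33.8% of all windows, the TATA box in 5 beside 12.4%, and the forkhead core in 1 beside 3.17%. Among the genes called higher, 7 had a promoter entry, in 8 windows, of which 6 held a GC box, 3 a CCAAT box, 1 the forkhead core and 0 a TATA box. Among the genes called lower, 4 had an entry, in 5 windows, of which 3 held a GC box, 1 a CCAAT box and 0 either of the other motifs. The stretches below read 5′ to 3′ along the gene's own strand, leave out annotated exons, and carry motif matches on either strand in capitals. They are the Col6a1 (chr10:76726169-76726294, minus strand), Col6a2 (chr10:76623631-76623880, minus), Col6a3 (chr1:90843972-90844221, minus), Col1a2 (chr6:4505370-4505492, plus), Col5a3 (chr9:20815068-20815317, minus) and Col24a1 (chr3:145292222-145292471, plus) upstream stretches, followed by those of the divergent pair Col4a6 (chrX:141474077-141474326, minus) and Col4a5 (chrX:141475169-141475384, plus).
Col6a1: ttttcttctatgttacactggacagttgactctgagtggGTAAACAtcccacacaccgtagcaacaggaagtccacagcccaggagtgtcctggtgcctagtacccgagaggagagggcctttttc
Col6a2: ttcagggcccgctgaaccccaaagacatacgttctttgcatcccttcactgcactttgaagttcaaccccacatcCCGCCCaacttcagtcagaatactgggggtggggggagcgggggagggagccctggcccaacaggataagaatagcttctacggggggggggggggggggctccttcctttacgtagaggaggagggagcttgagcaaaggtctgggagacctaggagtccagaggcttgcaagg
Col6a3: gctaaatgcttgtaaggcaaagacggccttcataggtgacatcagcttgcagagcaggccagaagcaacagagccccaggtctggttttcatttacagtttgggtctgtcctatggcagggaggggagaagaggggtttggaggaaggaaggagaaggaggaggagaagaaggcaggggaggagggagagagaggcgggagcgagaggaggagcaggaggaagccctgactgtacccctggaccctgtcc
Col1a2: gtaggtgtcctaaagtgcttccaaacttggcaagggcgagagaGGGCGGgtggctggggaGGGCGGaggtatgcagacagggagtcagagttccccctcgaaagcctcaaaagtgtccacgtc
Col5a3: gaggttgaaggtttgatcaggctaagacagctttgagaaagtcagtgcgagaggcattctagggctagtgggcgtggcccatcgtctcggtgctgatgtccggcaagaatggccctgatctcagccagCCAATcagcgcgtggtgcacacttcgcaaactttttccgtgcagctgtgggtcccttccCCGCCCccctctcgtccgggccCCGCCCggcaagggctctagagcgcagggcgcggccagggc
Col24a1: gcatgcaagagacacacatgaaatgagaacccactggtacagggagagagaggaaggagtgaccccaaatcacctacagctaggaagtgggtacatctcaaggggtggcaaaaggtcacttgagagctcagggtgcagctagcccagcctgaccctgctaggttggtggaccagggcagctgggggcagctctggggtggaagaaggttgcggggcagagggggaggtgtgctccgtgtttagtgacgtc
Col4a6: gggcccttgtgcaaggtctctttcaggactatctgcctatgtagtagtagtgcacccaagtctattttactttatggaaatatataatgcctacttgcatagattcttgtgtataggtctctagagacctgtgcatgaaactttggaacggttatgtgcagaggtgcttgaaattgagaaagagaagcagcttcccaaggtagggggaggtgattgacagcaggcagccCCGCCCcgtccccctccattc
Col4a5: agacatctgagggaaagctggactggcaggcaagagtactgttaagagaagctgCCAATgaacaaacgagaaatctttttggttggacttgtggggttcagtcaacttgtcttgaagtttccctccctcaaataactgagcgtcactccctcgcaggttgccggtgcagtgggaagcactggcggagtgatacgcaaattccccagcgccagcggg

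The Col1a2 stretch lies before its RefSeq start but inside the gene as GENCODE places it. Col6a2 had a second window (chr10:76623405-76623654, minus) with 3 GC boxes, beside 1 in the window printed. That second window is not printed, and its longest stretch outside annotated exons was 24 bases. Leaving out exons made some stretches shorter than the windows searched. The CCAAT box counted in the Col1a2 window and the GC box counted in the Col4a5 window therefore fall outside the printed letters. The only forkhead core among the collagen windows was that of Col6a1. No searched motif was present in the stretches of Col6a3 and Col24a1, the collagens with the highest and the lowest fold change, which says only that these letters are not in these windows.

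Type VI collagen had the highest median fold change of the classes. Its 4 abundant chains rose in Wnk1d/d uteri with no overlap between genotypes, from 1.75-fold for Col6a1 to 3.43-fold for Col6a3. Type VI filaments link cells to the surrounding fibers, and their unit contains the alpha1 and alpha2 chains together with alpha3 or one of the alpha4 to alpha6 chains. The median log2 fold change of the 5 tested chains was 1.01.

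Col6a3 (chr1:90765923-90843971, minus strand), whose long chain carries most of the globular domains of the filament, measured 61.90, 35.71, 65.82 and 33.26 FPKM in the controls and 165.27, 141.82, 197.06, 161.56 and 177.37 FPKM in the Wnk1d/d uteri. The lowest Wnk1d/d library was more than 2-fold above the highest control, and controls 1 and 3 were higher than controls 2 and 4. The means were 49.2 ± 17.1 (SD, n = 4) and 169 ± 20.4 FPKM (SD, n = 5), with a log2 fold change of 1.81 (SE 0.21, limma adjusted p = 0.00205). Col6a1 (chr10:76708792-76726168, minus), the alpha1 chain, measured 325.34, 290.94, 333.65 and 334.89 FPKM in the controls and 539.76, 580.04, 597.68, 525.43 and 567.62 FPKM in the Wnk1d/d uteri. Its controls were even, all between 290.94 and 334.89 FPKM (log2 fold change 0.81, SE 0.08, limma adjusted p = 0.00143). Col6a2 (chr10:76595762-76623630, minus), the alpha2 chain and the neighbour of Col6a1 at a distance of 85161 bases, measured 267.91, 250.89, 296.55 and 232.98 FPKM in the controls and 489.90, 514.97, 583.70, 507.62 and 543.06 FPKM in the Wnk1d/d uteri. The genotypes were far apart here as well, at a ratio of 2.01 (log2 fold change 1.01, SE 0.09, limma adjusted p = 0.00116).

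Col6a4 (chr9:105989454-106096783, minus), one of the chains that can replace alpha3, measured 19.10, 22.59, 20.22 and 30.63 FPKM in the controls and 41.25, 53.44, 58.05, 43.92 and 48.93 FPKM in the Wnk1d/d uteri. The highest control was control 4, unlike in Col6a3, where control 4 was the lowest. The ratio was 2.12 (log2 fold change 1.07, SE 0.15, limma adjusted p = 0.00317). The other alternative chains lie beside Col6a4 on chromosome 9, Col6a5 at 28810 bases from it and Col6a6 at 27917 bases from Col6a5. They were near the lower end of the scale and were not called, with Col6a6 at means of 2.40 and 3.12 FPKM (log2 fold change 0.23, limma adjusted p = 0.495) and Col6a5, at 0.453 and 0.454 FPKM, below the filter.

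**Figure D2:**
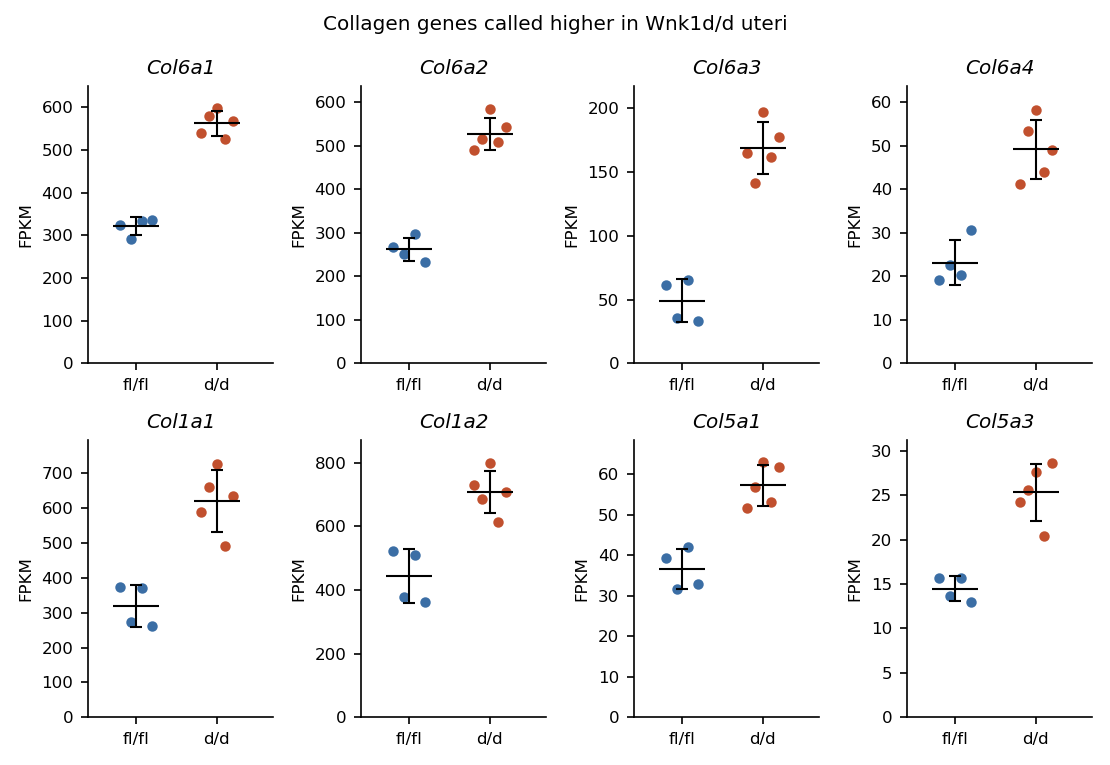
FPKM by library (y axis) for the 8 collagen genes called higher, with 1 point per mouse in the Wnk1fl/fl (blue) and Wnk1d/d (red) group, a long line at the mean and error bars of 1 SD. No panel shows an overlap between genotypes, and for Col6a3 the controls end at 65.82 FPKM and the Wnk1d/d libraries begin at 141.82 FPKM.

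Smooth muscle transcripts moved with the same comparison. All 6 of 6 markers on the list (Acta2, Actg2, Myh11, Cnn1, Des and Tagln) were called higher in Wnk1d/d uteri, and their summed level ranged from 2797 to 6372 FPKM in the controls and from 7210 to 13655 FPKM in the Wnk1d/d uteri. Among all genes tested, 5.09% were called higher and 5.18% lower. Of the 6 stromal markers, Lum was called higher and Pdgfra and Pdgfrb were called lower, and 4 in all (these 2, Hand2 and Vim) had an adjusted p under 0.05 with every Wnk1d/d library below every control. At that adjusted p 11.0% of all genes tested were lower, and 10.6% had every Wnk1d/d library below every control. The median log2 fold change of the stromal list was -0.58, and its summed level ranged from 1551 to 1896 FPKM in the controls and from 1342 to 1643 FPKM in the Wnk1d/d uteri. Of 3 mesothelial markers 1 was called higher, with sums of 7.23 to 21.8 FPKM in the controls and 17.2 to 64.4 FPKM in the Wnk1d/d uteri, and the only tested Schwann cell marker of 3 was not called, with sums of 4.25 to 4.80 and 2.51 to 3.81 FPKM. No marker of epithelium (0 of 6) or of leukocytes (0 of 5) was called, and the markers of cartilage and adipocytes summed to at most 0.13 and 0.86 FPKM in any library. In whole tissue, more cells of a type and more RNA per cell cannot be told apart. The part of the smooth muscle, stromal and mesothelial markers in the collagen differences was not tested.

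The fibrillar collagens divided by type. All 6 chains of types I, III and V had fold changes above 0 (median log2 fold change 0.66), and 4 of them were called higher, whereas all 4 tested chains of types XI, XXIV and XXVII had fold changes below 0 and 1 of them was called lower. The rise was about 1.94-fold for Col1a1, 1.60-fold for Col1a2, 1.57-fold for Col5a1 and 1.75-fold for Col5a3.

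Type I collagen, the main tension-bearing fiber, is built from 2 alpha1 chains and 1 alpha2 chain. Col1a1 (chr11:94936224-94953042, plus strand) measured 372.54, 272.66, 370.26 and 260.78 FPKM in the controls and 588.43, 658.46, 725.39, 489.90 and 634.68 FPKM in the Wnk1d/d uteri. As with Col6a3, controls 1 and 3 were above controls 2 and 4. Wnk1d/d library 4 was the lowest of its group (log2 fold change 0.96, SE 0.15, limma adjusted p = 0.0052). Col1a2 (chr6:4504814-4541544, plus) measured 524.07, 379.71, 510.22 and 360.94 FPKM in the controls and 729.50, 686.84, 799.83, 615.04 and 709.14 FPKM in the Wnk1d/d uteri. Wnk1d/d library 3 was the highest and library 4 the lowest of its group, as for Col1a1, and the groups did not overlap (log2 fold change 0.69, SE 0.14, limma adjusted p = 0.0104).

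Col3a1 (chr1:45311538-45349706, plus), the single chain of type III collagen that shares fibers with type I in soft tissue, was the most abundant collagen, at a mean of 773 FPKM over the 9 libraries. It measured 722.80, 566.81, 742.99 and 566.94 FPKM in the controls and 896.44, 910.17, 928.58, 736.36 and 887.07 FPKM in the Wnk1d/d uteri. Wnk1d/d library 4 fell just below control 3, so the groups overlapped, and although the adjusted p was under 0.05 the ratio of 1.34 did not reach the fold criterion (log2 fold change 0.43, SE 0.12, limma adjusted p = 0.0336).

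Type V collagen nucleates fibers and restrains their width. Col5a1 (chr2:27886425-28039514, plus) measured 39.29, 31.72, 42.03 and 33.04 FPKM in the controls and 51.58, 56.86, 63.03, 53.13 and 61.85 FPKM in the Wnk1d/d uteri (log2 fold change 0.64, SE 0.10, limma adjusted p = 0.00509). Col5a3 (chr9:20770050-20815067, minus) measured 15.64, 13.64, 15.65 and 13.01 FPKM in the controls and 24.27, 25.57, 27.62, 20.38 and 28.65 FPKM in the Wnk1d/d uteri (log2 fold change 0.76, SE 0.10, limma adjusted p = 0.00317). Neither gene showed an overlap between genotypes. The third chain, Col5a2, is the tail-to-tail neighbour of Col3a1 at 24614 bases and measured 72.03, 59.12, 78.80 and 73.40 FPKM in the controls and 79.70, 80.46, 86.53, 73.89 and 85.73 FPKM in the Wnk1d/d uteri. Its groups overlapped and it was not called (log2 fold change 0.20, SE 0.09, limma adjusted p = 0.129).

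Col24a1 (chr3:145292472-145552011, plus), a fibrillar collagen of low abundance that is best known from developing bone and eye, had the lowest fold change of all the collagens tested. It measured 13.13, 13.72, 11.66 and 17.88 FPKM in the controls and 3.96, 8.52, 1.89, 4.59 and 4.01 FPKM in the Wnk1d/d uteri. Every Wnk1d/d library lay below every control, and Wnk1d/d library 2 came nearest to them. The mean fell from 14.1 ± 2.67 (SD, n = 4) to 4.59 ± 2.42 FPKM (SD, n = 5), a ratio of 0.326 (log2 fold change -1.52, SE 0.29, limma adjusted p = 0.00858). Its closest relative by structure, Col27a1, averaged 14.2 and 11.1 FPKM and was not called (log2 fold change -0.34, limma adjusted p = 0.118). The type XI chains, partners of type II in cartilage, were not called either, with Col11a1 at 4.90 and 4.01 FPKM (log2 fold change -0.23, limma adjusted p = 0.0873, no overlap) and Col11a2 at 1.55 and 1.35 FPKM (log2 fold change -0.12, limma adjusted p = 0.429). Col2a1, the collagen of cartilage, did not exceed 0.02 FPKM in any library.

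**Figure D3:**
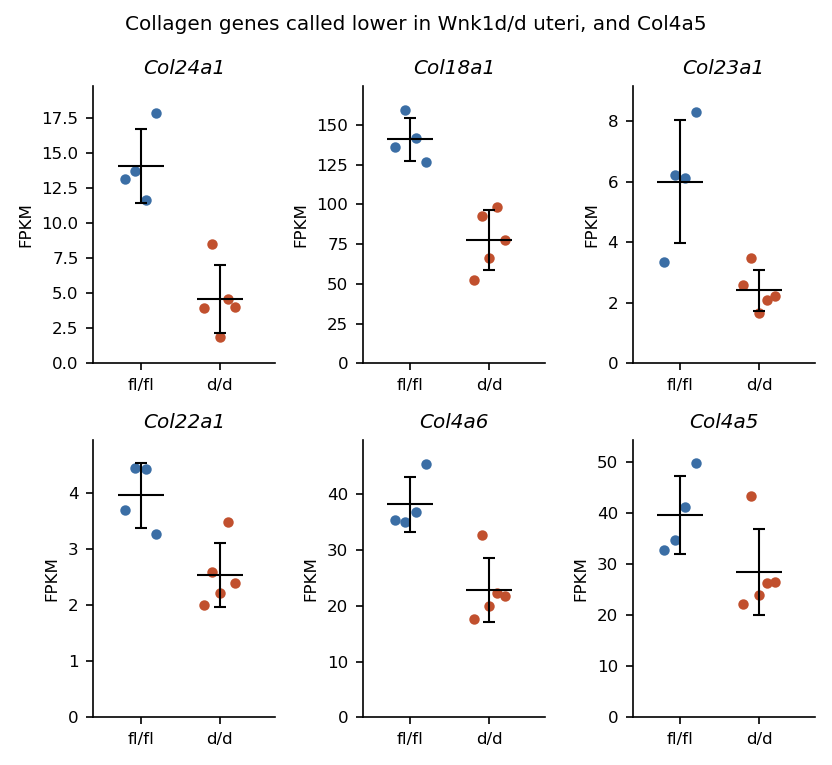
FPKM by library (y axis) for the 5 collagen genes called lower and for Col4a5, the neighbour of Col4a6, drawn as in the plot of the genes called higher (blue Wnk1fl/fl, red Wnk1d/d, mean and 1 SD). Wnk1d/d library 2 is the highest of its group for Col24a1, Col23a1, Col4a6 and Col4a5, at 8.52, 3.49, 32.62 and 43.38 FPKM.

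Type IV collagen did not move as a class. The 6 genes lie in 3 head-to-head pairs that share a start region, Col4a1 with Col4a2, Col4a3 with Col4a4, and Col4a5 with Col4a6, and the members of each pair had fold changes of the same sign. The pair that builds the basement membranes of most tissues was not called, and in the pair on chromosome X, which builds the basement membrane around smooth muscle and some epithelia, Col4a6 was called lower and Col4a5 was not. The median log2 fold change of the 6 genes was -0.34.

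Col4a6 (chrX:141165403-141474076, minus strand) measured 35.34, 35.04, 36.78 and 45.41 FPKM in the controls and 17.69, 32.62, 20.02, 22.18 and 21.81 FPKM in the Wnk1d/d uteri. The groups did not overlap, and Wnk1d/d library 2 was again the one closest to the controls (ratio 0.599, log2 fold change -0.74, SE 0.16, limma adjusted p = 0.0136). Col4a5 (chrX:141475385-141689234, plus), which starts 1308 bases from Col4a6 in the other direction, measured 32.76, 34.83, 41.18 and 49.82 FPKM in the controls and 22.19, 43.38, 24.04, 26.34 and 26.59 FPKM in the Wnk1d/d uteri. With the exception of Wnk1d/d library 2, every Wnk1d/d library lay below every control, and the gene was not called (log2 fold change -0.48, SE 0.19, limma adjusted p = 0.0962). Without that library, Col4a5 was called lower (log2 fold change -0.64, limma adjusted p = 0.00956).

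Col4a1 (chr8:11198423-11312826, minus), the most abundant type IV chain, measured 170.95, 180.17, 173.01 and 165.53 FPKM in the controls and 159.08, 230.23, 215.82, 212.99 and 225.96 FPKM in the Wnk1d/d uteri. All Wnk1d/d libraries except library 1 exceeded the controls (log2 fold change 0.26, SE 0.11, limma adjusted p = 0.106). Col4a2, whose annotated start overlaps that of Col4a1 by 22 bases on the other strand, had means of 110 and 129 FPKM (log2 fold change 0.21, limma adjusted p = 0.224). The kidney and inner ear pair, Col4a3 and Col4a4, stood near the filter. Col4a3 averaged 1.43 and 0.952 FPKM (log2 fold change -0.31, limma adjusted p = 0.105) and Col4a4 averaged 1.36 and 0.840 FPKM (log2 fold change -0.37, limma adjusted p = 0.101).

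Of the 2 multiplexins, Col18a1 fell and Col15a1 was not called. Col18a1 (chr10:77052178-77166548, minus strand), a heparan sulfate-bearing basement membrane collagen whose C-terminal fragment is endostatin, measured 136.27, 159.15, 141.47 and 126.65 FPKM in the controls and 52.47, 92.42, 66.28, 98.17 and 77.60 FPKM in the Wnk1d/d uteri. Every Wnk1d/d library was below every control, and the ratio was 0.549 (log2 fold change -0.89, SE 0.17, limma adjusted p = 0.00961). Col15a1, found around capillaries and muscle cells, measured 113.01, 146.28, 124.53 and 107.08 FPKM in the controls and 81.11, 87.29, 123.07, 99.35 and 112.03 FPKM in the Wnk1d/d uteri. Its groups overlapped and it was not called (log2 fold change -0.29, SE 0.14, limma adjusted p = 0.15). The endothelial markers (Pecam1, Cdh5, Kdr, Tek, Emcn and Vwf) moved in the same comparison, all 6 of 6 being called lower, with a summed level of 331 to 367 FPKM in the controls and 131 to 266 FPKM in the Wnk1d/d uteri. Among all genes tested, 5.18% were called lower. Wnk1d/d library 1 was the lowest of all libraries in the endothelial sum and in Col18a1, Col15a1, Col4a1 and Col4a2. Among the collagens tested, it was also the lowest in Col4a5, Col4a6, Col7a1, Col11a2, Col22a1, Col26a1 and Col27a1. Unlike the endothelial markers, Col4a1 and Col4a2 had higher means in Wnk1d/d uteri than in the controls. The part of the endothelial markers in these values was not tested.

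Among the FACIT collagens, which decorate fiber surfaces, 5 of the 7 tested had fold changes above 0 and none of those was called, and 1 was called lower. Col16a1, the most abundant, measured 170.46, 151.89, 139.66 and 105.71 FPKM in the controls and 166.62, 165.09, 204.14, 253.45 and 202.22 FPKM in the Wnk1d/d uteri. Control 1 lay above a pair of Wnk1d/d libraries (log2 fold change 0.48, SE 0.16, limma adjusted p = 0.0602). Col14a1 and Col12a1, which bind type I fibers in dense connective tissue, were close to the thresholds. Col14a1 averaged 26.3 and 38.7 FPKM (log2 fold change 0.57, limma adjusted p = 0.0529). Col12a1 averaged 8.87 and 12.8 FPKM and passed the adjusted p (log2 fold change 0.47, limma adjusted p = 0.0495) but not the fold criterion, at a ratio of 1.44.

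Col22a1 (chr15:71795795-72034227, minus), a collagen of muscle-tendon junctions, was the FACIT gene called lower. It measured 3.70, 4.45, 4.43 and 3.27 FPKM in the controls and 2.01, 2.59, 2.22, 3.49 and 2.40 FPKM in the Wnk1d/d uteri, so that Wnk1d/d library 4 exceeded control 4 (ratio 0.642, log2 fold change -0.49, SE 0.13, limma adjusted p = 0.0273). This call did not hold in 6 of 19 alternative fits, among them those without control 2 or 3 or Wnk1d/d library 1, 3 or 5. Of the remaining tested FACIT genes, Col20a1 averaged 10.8 and 8.03 FPKM (log2 fold change -0.41, limma adjusted p = 0.141), Col9a2 averaged 2.81 and 4.40 FPKM (log2 fold change 0.53, limma adjusted p = 0.222) and Col9a3 averaged 1.57 and 1.80 FPKM (log2 fold change 0.12, limma adjusted p = 0.449).

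The smaller classes held 1 further call. Col23a1 (chr11:51289920-51583918, plus), a transmembrane collagen that is shed from the cell surface, measured 3.35, 6.23, 6.13 and 8.32 FPKM in the controls and 2.60, 3.49, 1.67, 2.10 and 2.24 FPKM in the Wnk1d/d uteri. Control 1 fell below Wnk1d/d library 2, and the mean ratio was 0.403 (log2 fold change -1.01, SE 0.22, limma adjusted p = 0.014). Col7a1, the anchoring fibril collagen beneath epithelia, measured 30.05, 33.80, 27.75 and 35.19 FPKM in the controls and 17.77, 41.18, 19.31, 31.08 and 21.76 FPKM in the Wnk1d/d uteri. The spread among the Wnk1d/d libraries was wider than the difference between genotypes, and it was not called (log2 fold change -0.33, SE 0.22, limma adjusted p = 0.304). Col26a1, an emilin-related collagen of reproductive tissue, measured 5.09, 7.87, 6.53 and 6.03 FPKM in the controls and 3.34, 4.5, 3.52, 6.75 and 5.0 FPKM in the Wnk1d/d uteri (log2 fold change -0.41, SE 0.18, limma adjusted p = 0.12). Col8a2, a short-chain network collagen of vessels and the cornea, measured 1.92, 1.34, 2.23 and 2.69 FPKM in the controls and 3.83, 2.01, 1.98, 1.5 and 2.55 FPKM in the Wnk1d/d uteri (log2 fold change 0.13, SE 0.20, limma adjusted p = 0.658). The groups overlapped in both.

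The 10 collagens below the filter were Col2a1, Col6a5, Col8a1, Col9a1, Col10a1, Col13a1, Col17a1, Col19a1, Col25a1 and Col28a1. Each was above 0 in at least 1 library, and the highest single value among them was 1.86 FPKM, in Col28a1. Col28a1, a collagen of peripheral nerve, was uneven among the controls, at 0.06, 1.27, 1.29 and 0.09 FPKM, and measured 1.86, 0.43, 0.76, 0.63 and 0.76 FPKM in the Wnk1d/d uteri. Col17a1, the hemidesmosome collagen of stratified epithelia, did not exceed 0.47 FPKM.

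In summed expression, the 44 collagens went from 3100 ± 306 FPKM (SD, n = 4) to 4569 ± 302 FPKM (SD, n = 5), a ratio of 1.47, with the highest control at 3389 and the lowest Wnk1d/d library at 4213 FPKM. Type VI had a ratio of 1.99, from 658 ± 50.6 to 1311 ± 82.7 FPKM, and its share of all collagen FPKM went from between 20.3% and 22.8% in the controls to between 27.9% and 29.5% in the Wnk1d/d uteri. The fibrillar class went from 1569 ± 251 to 2384 ± 230 FPKM, but its share stayed within overlapping ranges, 47.0% to 53.5% in the controls and 47.8% to 55.1% in the Wnk1d/d uteri. Type IV kept a similar sum, 363 ± 8.91 and 391 ± 55.9 FPKM, and took a smaller share, 10.5% to 13.2% in the controls and 6.84% to 9.59% in the Wnk1d/d uteri. The multiplexins went from 264 ± 30.8 to 178 ± 25.6 FPKM, and their share from a mean of 8.57% to 3.90%. These sums are descriptions and were not tested.

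**Figure D4:**
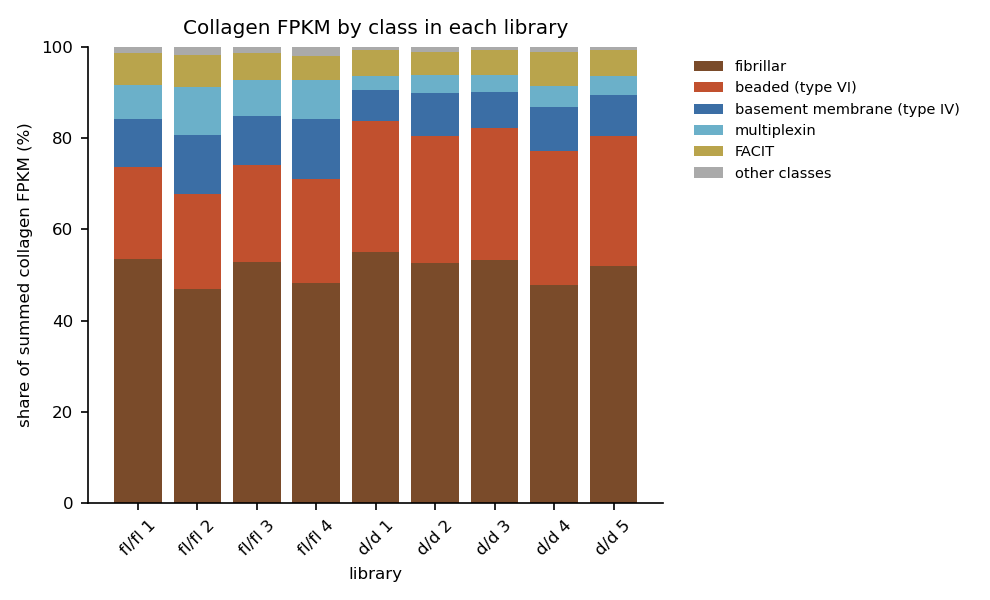
Share of the summed collagen FPKM (y axis, %) taken by each class in each of the 9 libraries (x axis), stacked to 100%. The type VI band covers 27.9% to 29.5% in the Wnk1d/d libraries against 20.3% to 22.8% in the controls, and the multiplexin and type IV bands are narrower in every Wnk1d/d library than in any control.

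Ratios between chains, of the same or of different collagen types, were computed within each library, where scaling between libraries cancels. The ratio of Col1a1 to Col1a2 was even among the controls, 0.711 to 0.726, and lay between 0.797 and 0.959 in the Wnk1d/d uteri. The ratio of Col3a1 to Col1a1 went from 1.94 to 2.17 in the controls to 1.28 to 1.52 in the Wnk1d/d uteri, so that type III exceeded type I by less. Neither pair of ranges overlapped. The ratio of Col5a1 to Col5a2 was 0.450 to 0.545 in the controls and 0.647 to 0.728 in the Wnk1d/d uteri, and that of Col6a3 to Col6a1 was 0.0993 to 0.197 and 0.245 to 0.330. Both were higher without overlap, whereas the ratio of Col6a2 to Col6a1 overlapped, at 0.696 to 0.889 and 0.888 to 0.977. In type IV, the ratio of Col4a1 to Col4a2 overlapped, at 1.53 to 1.62 and 1.51 to 1.74, and that of Col4a6 to Col4a1 did not, at 0.194 to 0.274 and 0.0928 to 0.142. Col4a5 relative to Col4a6 was 0.927 to 1.12 in the controls and 1.19 to 1.33 in the Wnk1d/d uteri, including Wnk1d/d library 2 at 1.33. Col4a6 was the lower of the pair in all 5 Wnk1d/d libraries and in controls 3 and 4. These ratios are descriptions and carry no test.

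**Figure D5:**
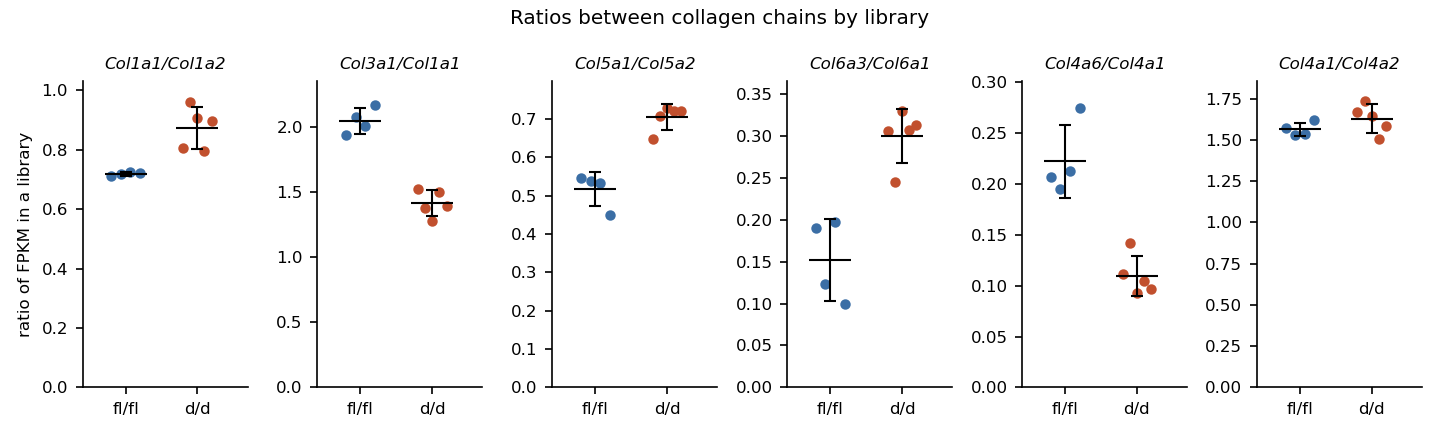
Ratio of the FPKM of 2 collagen chains within a library (y axis, no unit) for 6 pairs, with 1 point per mouse (blue Wnk1fl/fl, red Wnk1d/d), the mean and 1 SD. The ranges are apart in the first 5 panels, for example 0.711 to 0.726 against 0.797 to 0.959 for Col1a1 over Col1a2, and overlap for Col4a1 over Col4a2.

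The genes that process collagen were read from 4 lists. Of 18 genes for modification and folding of the chains in the endoplasmic reticulum, all tested, 3 were called higher and 0 lower, and 6 were higher and 0 lower at an adjusted p under 0.05 (median log2 fold change 0.14). Of all genes tested, 5.09% were called higher, 5.18% were called lower and 11.1% were higher at that adjusted p, and the same shares apply to the lists that follow. P4ha3, a prolyl 4-hydroxylase subunit whose reaction stabilizes the triple helix, measured 2.15, 1.63, 2.12 and 1.02 FPKM in the controls and 9.13, 7.06, 12.93, 10.91 and 13.22 FPKM in the Wnk1d/d uteri. This was a 6.16-fold difference between means without overlap (log2 fold change 2.08, SE 0.19, limma adjusted p = 0.00128). P4ha2, its paralog, averaged 24.4 and 37.8 FPKM (log2 fold change 0.61, SE 0.14, limma adjusted p = 0.0154), and Leprel1, a prolyl 3-hydroxylase, averaged 3.55 and 6.00 FPKM (log2 fold change 0.61, SE 0.12, limma adjusted p = 0.0108). Ppib, the most abundant gene of the list and a prolyl isomerase of the endoplasmic reticulum, averaged 497 and 530 FPKM and was not called (log2 fold change 0.09, limma adjusted p = 0.411).

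Of 8 genes that cleave the propeptides or aid this step, 7 were tested, 2 were called higher and 0 lower (median log2 fold change 0.52). Both were aminopropeptidases. Adamts2, which trims types I to III, measured 17.16, 11.95, 13.90 and 12.64 FPKM in the controls and 20.32, 20.94, 25.56, 20.52 and 28.25 FPKM in the Wnk1d/d uteri (log2 fold change 0.69, SE 0.13, limma adjusted p = 0.00839). Adamts3 measured 1.56, 1.08, 1.62 and 1.81 FPKM in the controls and 3.36, 2.76, 4.04, 3.67 and 3.52 FPKM in the Wnk1d/d uteri (log2 fold change 0.83, SE 0.12, limma adjusted p = 0.0036). Neither overlapped between genotypes. Pcolce, the enhancer of C-propeptide removal and the most abundant gene of the list, averaged 87.6 and 84.5 FPKM (log2 fold change -0.03, limma adjusted p = 0.875).

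Of 10 collagen receptor genes, 8 were tested, 0 were called higher and 2 lower (median log2 fold change -0.24). Itga10 and Itga11, integrin alpha subunits that bind collagen as partners of beta1, were both rare, at means of 1.78 and 1.16 FPKM (log2 fold change -0.36, SE 0.10, limma adjusted p = 0.0382) and of 1.23 and 0.578 FPKM (log2 fold change -0.49, SE 0.13, limma adjusted p = 0.0296). Itgb1, the shared beta1 subunit and the most abundant gene of the list, averaged 173 and 233 FPKM, below the fold criterion (log2 fold change 0.43, limma adjusted p = 0.0327). Of 6 genes for collagen breakdown, 4 were tested and none was called. Mmp2, a gelatinase and the most abundant of them over the 9 libraries, was lower in every Wnk1d/d library than in any control, at means of 212 and 150 FPKM, and its ratio of 0.706 did not reach the fold criterion (log2 fold change -0.49, SE 0.12, limma adjusted p = 0.0183). Ctsk went the other way and was higher in every Wnk1d/d library than in any control, at means of 40.0 and 46.4 FPKM. Its ratio of 1.16 did not reach the fold criterion either (log2 fold change 0.21, SE 0.06, limma adjusted p = 0.0428). Mmp9 and Mmp14 did not pass the adjusted p.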

How the data were processed

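RNA was extracted with TRIzol from the whole uterus of 9 mice on PPD 4.5, and 1 TruSeq library per mouse was sequenced in paired ends on an Illumina HiSeq instrument. Per the labels and the study's methods, the authors aligned reads to mm10 with TopHat2 2.0.4. The submitters' processing notes name Cufflinks 2.0.2, whereas the study's methods name another Cufflinks release for its differential test. Which release made the deposited values could not be settled. The study's test was Cuffdiff, which was not rerun here. The annotation used is not given in the sources used here. The deposited table holds the authors' FPKM values, rounded to 2 decimals, and depth cannot be recovered from them, so no counting intervals are given. All 9 value columns were matched to a sample.

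Groups were taken from the sample labels. Genes with a mean above 1 FPKM in at least 1 genotype (14728 genes) were tested on log2(FPKM + 1) with limma 3.58.1 in R 4.3.3 (lmFit, eBayes with trend, no block), with Benjamini-Hochberg adjustment over all of them. Log2 fold changes are on the log2(FPKM + 1) scale, which understates the change of low genes. A gene was called when it passed both an adjusted p threshold of 0.05 and a 1.5-fold difference between the genotype means. Single genes were also tested by exact two-sided permutation of the difference in mean FPKM, without adjustment. The fit was tested on simulated data. Coordinates are from GENCODE release M21 (GRCm38.p6), the same assembly as mm10, and promoters from RefSeq.

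The collagen members, classes, pathway lists and marker lists were chosen with earlier results of these data known. Values by library are given for every called collagen and for the most abundant member of each class. The 20 alternative fits used pseudocounts of 0.1 and 0.01, no filter or one at 5 FPKM, median scaling, quantile normalization, other variance settings, library weights, a replicate block and 10 fits with libraries left out.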

Additional observations from a re-analysis of the deposited data

Results flagged for a closer look

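Among the 68 groups of values formed by the 34 tested collagens in each genotype, 7 held 1 library whose distance to the nearest other library took up more of the group's range than Dixon's 95% limit allows. Chance alone flags about 1 group in 20.

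Wnk1d/d library 1 was low for the head-to-head pair of type IV genes, with Col4a1 at 159.08 FPKM against 212.99 to 230.23 FPKM in the other Wnk1d/d libraries and Col4a2 at 95.41 FPKM against 131.05 to 142.66 FPKM. Wnk1d/d library 2 was high for Col4a5, at 43.38 FPKM against 22.19 to 26.59 FPKM, for Col4a3, at 1.29 FPKM against 0.82 to 0.94 FPKM, and for Col6a6, at 5.74 FPKM against 1.91 to 2.89 FPKM. Wnk1d/d library 4 was low for Col3a1, at 736.36 FPKM against 887.07 to 928.58 FPKM. Control 4 was high for Col4a6, at 45.41 FPKM against 35.04 to 36.78 FPKM, and it was also the library with the high liver transcripts.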

How the results depend on the processing

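The 8 higher calls were kept in every alternative fit except the replicate block. The 5 lower calls were kept except for Col22a1 and under that block. In fits that changed only the scaling, the pseudocount or the variance settings, the fold criterion still used the deposited FPKM means. There a call could change only through the adjusted p. With quantile normalization, Col1a2 kept its call although its log2 fold change in that fit, 0.49, lay below the fold criterion. Leaving out 1 library at a time gave 8 to 9 higher calls, 4 to 7 lower calls and a median log2 fold change of 0.10 to 0.20. Without Wnk1d/d library 2, Col12a1 was also called higher and Col4a4 and Col4a5 lower. Other gains were Col14a1 higher without control 1 or 3, Col12a1 higher without Wnk1d/d library 5, Col26a1 lower without Wnk1d/d library 4 and Col9a1 lower with no filter. Leaving out both control 4 and Wnk1d/d library 2, chosen after seeing the data, gave 8 higher and 6 lower calls. A fold criterion of 2 left 3 higher and 2 lower calls, by construction. The median moved to 0.0008 with no filter, where rare collagens enter, and to 0.26 with a filter at 5 FPKM, where they leave. With quantile normalization, where genes and libraries stayed the same, the median was 0.10. Without 1 library, the log2 fold change of Col8a2 ran from -0.0082, a change of sign without Wnk1d/d replicate 1, to 0.2294, and the cause was not tested.

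Replicate numbers 1 to 4 in the labels belong to different mice and share only a number. The deviations of same-numbered libraries correlated at -0.087, -0.003, 0.022 and -0.268. With the number as a replicate block, which drops Wnk1d/d library 5, 6 collagens were called higher and 0 lower, and over all 14719 genes tested in that fit the calls went from 750 to 152 higher and from 763 to 105 lower. The log2 fold changes of the collagens that lost their call stayed close to those without the block, at -1.51 for Col24a1 (limma adjusted p = 0.0519), -0.90 for Col18a1, -0.73 for Col4a6, -0.99 for Col23a1, -0.48 for Col22a1, 0.69 for Col1a2 and 0.61 for Col5a1. FPKM values carry no depth, so the precision of the collagens near 1 FPKM is unknown.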
